A study of Mus musculus with 12 samples.

Results

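Transcripts of 34 antioxidant and iron storage genes were measured in blood-forming progenitor cells of mouse bone marrow. The genes were taken by symbol from a list, and all 34 were found among the 55450 rows of the count table, 1 row each. All 34 also passed the filter on low counts that left 14346 genes for testing, and the lowest count of any of them in a library was 50 (Hmox1). They were ordered by role into 8 groups: regulators, glutathione enzymes, the thioredoxin system, peroxiredoxins, superoxide dismutases with catalase, NADPH supply with quinone reduction, ferritin with heme oxygenase, and glutaredoxins.

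The material was the lineage-negative, Kit-positive fraction of donor origin, isolated from the marrow of mice after competitive transplantation, in which donor and competitor cells share 1 host. RNA was sequenced as 12 libraries, 3 for each of 4 donor genotypes: wild type (WT), Tet2 knockout (Tet2KO), Id1 knockout (Id1KO) and the knockout of both genes (dKO). Tet2 encodes an enzyme that oxidizes methylated cytosine, and Id1 a protein that keeps helix-loop-helix transcription factors off DNA. The alleles, any Cre driver, the strain and the age of the mice are not given in the labels used here. The 3 libraries of a genotype share 1 sample number in their titles, so each p-value measures the spread between these libraries, which may be technical, and not between mice.

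Library totals ran from 15706368 to 19959153 counts, and the common biological coefficient of variation between libraries of a genotype was 0.0305. The transcripts of Tet2 and Id1 were not reduced where the label says knockout. Tet2 stood at 99.3 ± 2.2 CPM (SD, n = 3) for WT, 129.9 ± 2.5 for Tet2KO, 92.0 ± 1.5 for Id1KO and 118 ± 3.1 for dKO, and Id1 at 1.47 ± 0.27 CPM (SD, n = 3) for WT, 3.86 ± 0.42 for Tet2KO, 3.96 ± 0.34 for Id1KO and 3.93 ± 0.5 for dKO. Every direction given here therefore rests on labels that these 2 transcripts do not bear out, and the genotype names stand for libraries so labelled. The sorted cells' own marker Kit was present at 314 to 377 CPM in every library, whereas Cd3e and Ly6g of mature T cells and neutrophils were at no more than 0.127 CPM. Levels are in CPM (counts per 1e+06 counts of the library, after TMM scaling), and a gene was called where its edgeR quasi-likelihood p, adjusted by the Benjamini-Hochberg method over all 14346 genes, was under 0.05.

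Blood cells make hydrogen peroxide and superoxide as they respire, and they clear them with superoxide dismutases, catalase, glutathione peroxidases and peroxiredoxins. The peroxidases and peroxiredoxins take their electrons from glutathione and thioredoxin, which NADPH keeps reduced. Many of these genes are switched on by the transcription factor NRF2 (encoded by Nfe2l2), which the adaptor KEAP1 holds at a low level until oxidants modify it, and which binds a short sequence called the antioxidant response element. Ferritin stores iron in a form that cannot feed radical chemistry, and its messenger RNAs carry an iron-responsive element, a stem-loop through which iron regulatory proteins block translation when iron is scarce.

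The element that NRF2 recognizes was sought as its core TGACNNNGC in RefSeq promoters (assembly GRCm38.p6), windows of 300 bases from 250 before to 50 after the start of transcription, on both strands. Of the 30 genes with an entry in that table, 8 (26.7%) held the core in at least 1 window, against 14% of 27025 genes in the table. The 30 genes have 1.4 windows each against 1.22 for all genes, and per window the share was 19% (8 of 42) against 12.4% of 32851. The related AP-1 site TGAGTCA was in 4 of 30 (13.3%) against 5.95% of all genes, and both motifs were found for Srxn1 and Prdx1. Hmox1, Gclc, Gsr and Prdx6 have no entry. The 8 matches are shown because they sit in genes that rose, fell or were not called. Capitals mark the 9 bases of the core, printed in the orientation that matches it.
Nfe2l2 at chr2:75704889-75704909 (-): cccaccTGACTCCGCcatgcc
Gclm at chr3:122245417-122245437 (-): gagagtTGACGGTGCgcccgg
Txnrd1 at chr10:82859108-82859128 (-): tcagaaTGACAAAGCaaaaat
Srxn1 at chr2:152105546-152105566 (-): tcactcTGACCTAGCtgccca
Prdx1 at chr4:116685460-116685480 (-): gggggaTGACTCAGCgctttc
Sod1 at chr16:90220700-90220720 (-): tgagtcTGACCACGCccacct
G6pdx at chrX:74428923-74428943 (+): gtgcttTGACTGAGCtgaccc
Pgd at chr4:149166065-149166085 (-): cagagcTGACATTGCactgat
A match is a description of these letters and not a binding site. In the libraries labelled Tet2KO against those labelled WT, Gclm, Srxn1, Sod1 and Nfe2l2 of these 8 fell, G6pdx rose, and Txnrd1, Prdx1 and Pgd were not called.

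The iron-responsive element of the 2 ferritin messengers was read from the 5′ untranslated region of GENCODE M21 transcripts (GRCm38). It is shown because both chains carry it although their transcripts moved differently, as described with the ferritins. Capitals mark the loop CAGTGN at the tip of the stem.
Fth1 at chr19:9982733-9982760 (+): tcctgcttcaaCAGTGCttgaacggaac
Ftl1 at chr7:45459779-45459806 (-): tcttgcttcaaCAGTGTttgaacggaac
The element acts on translation in the 5′ untranslated region, and the transcript counts used here do not measure it.

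The 4 members that are selenoproteins carry an in-frame TGA that is read as selenocysteine, the residue at their active site. It is shown because it sets these 4 apart from the other members. The codon is in capitals within the coding strand, from GENCODE M21 coding sequences.
Gpx1 at chr9:108339451-108339453 (+): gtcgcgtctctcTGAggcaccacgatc
Gpx4 at chr10:80054737-80054739 (+): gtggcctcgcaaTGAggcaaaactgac
Txnrd1 at chr10:82896037-82896039 (+): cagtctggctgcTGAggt
Txnrd2 at chr16:18477772-18477774 (+): gtgactggttgcTGAggc
The coordinates are those of the codon. Its number can differ between transcripts, and it is annotated in 1 complete transcript of Gpx1, 3 of Gpx4 and 4 of each thioredoxin reductase. In the longest of these it is codon 47 of 201 in Gpx1 and 129 of 253 in Gpx4. It is the last but 1 in the reductases, at 612 of 613 in Txnrd1 and 526 of 527 in Txnrd2. Of these 4 genes, Gpx4 and Txnrd2 fell in libraries labelled Tet2KO against WT, and Gpx1 and Txnrd1 were not called there.

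Levels were compared between genes per length, as CPM per kilobase of merged exons, averaged over the 12 libraries. The ferritin light chain Ftl1 and the glutathione peroxidase Gpx1 were far above the rest, at 622 and 584 CPM per kilobase. Thioredoxin Txn1, the transferase Gstm1 and glutathione reductase Gsr followed, at 187, 149 and 112. The ferritin heavy chain Fth1 stood at 72.9, below its light chain partner. At the low end were heme oxygenase Hmox1 at 2.06, sulfiredoxin Srxn1 at 2.12 and the mitochondrial glutaredoxin Glrx2 at 2.15. Of the 34 genes, 31 averaged at least 10 CPM.

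**Figure D1:**
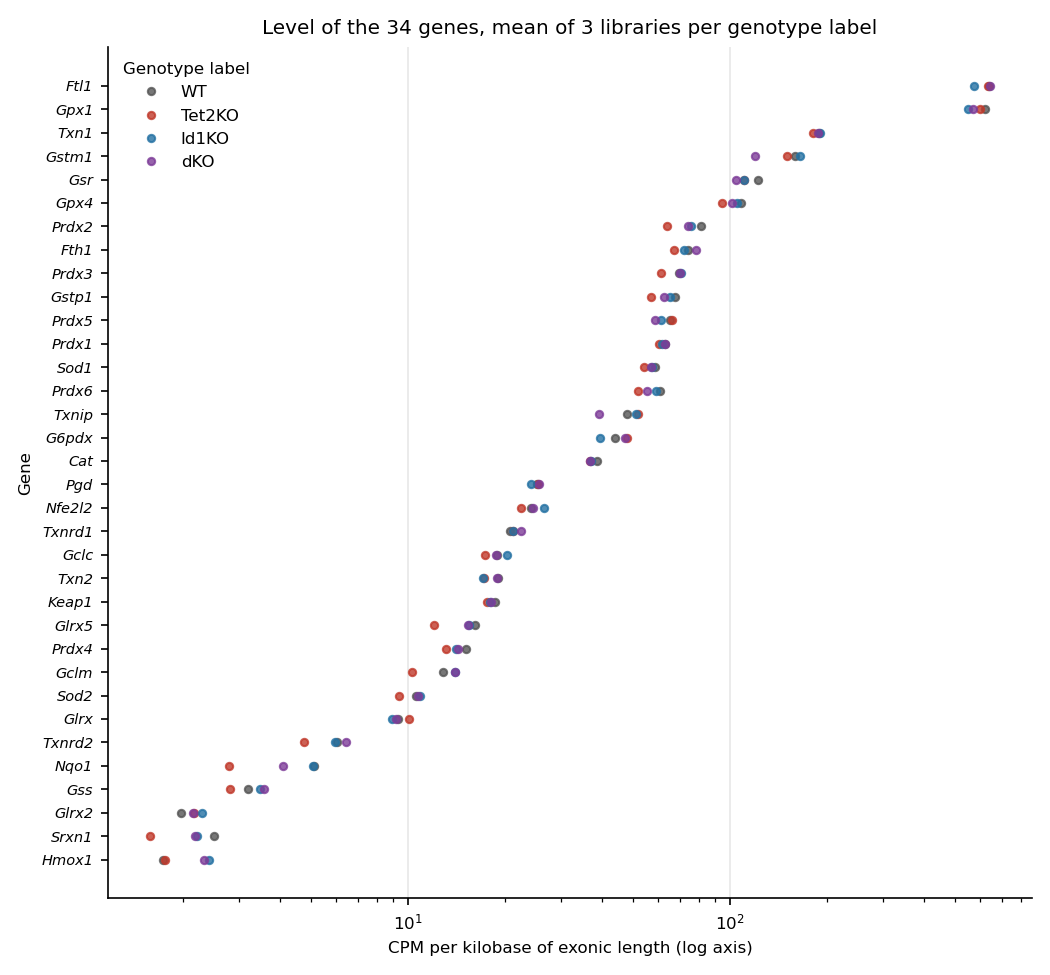
Mean level of each of the 34 genes per genotype label, in CPM per kilobase of exonic length on a log axis, with each point the mean of 3 libraries. The genes span from Hmox1 at 2.06 to Ftl1 at 622 CPM per kilobase over all libraries, and the 4 genotype labels lie close together for most genes.

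In libraries labelled Tet2KO against WT, 21 of the 34 genes were called, 18 lower and 3 higher. Over all genes tested 32.8% were called, 16.2% lower and 16.6% higher, and among genes of at least 10 CPM 40.6% were called, 21.4% lower and 19.2% higher. The median log2 fold change of the 34 was -0.12, against 0 over all genes. The 3 that rose were Txnip, G6pdx and Glrx, and 26 of the 34 log2 fold changes were below 0. The differences were small: none reached 2-fold and 6 of the 21 calls exceeded 1.2-fold. The libraries of the 2 labels did not overlap for 23 genes, 20 lower and 3 higher, where 46% of all genes did not overlap (23.1% lower, 22.9% higher).

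In dKO against Tet2KO, 20 of the 34 were called, 15 higher and 5 lower, where 26.4% of all genes were called, 13.1% higher and 13.4% lower. Among genes of at least 10 CPM the share was 34.5%, 17.3% higher and 17.2% lower. The median was 0.09 against 0 over all genes, and 8 of the 20 calls exceeded 1.2-fold. Libraries did not overlap for 19 genes that were higher and 5 that were lower, where 39.9% of all genes did not overlap (19.7% higher, 20.2% lower). This comparison uses the same Tet2KO libraries as the one against WT, so opposite signs in the 2 are not independent of each other. In dKO against WT, 11 genes were called, 3 higher and 8 lower, where 19.2% of all genes were called (10.2% higher, 8.97% lower), with a median of -0.02. There the libraries did not overlap for 5 higher and 12 lower genes, where 33.1% of all genes did not (16.7% higher, 16.5% lower). The lowest of the 4 genotype means was that of Tet2KO for 20 of the 34 genes, of Id1KO for 6, of dKO for 5 and of WT for 3. The same count was not made over all genes, so it does not show a trait particular to the 34.

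In Id1KO against WT, 10 genes were called, 5 higher and 5 lower, where 15% of all genes were called (7.26% higher, 7.77% lower) and 19.6% of those of at least 10 CPM (9.69% higher, 9.86% lower). The median was -0.04 against -0.01, and the libraries did not overlap for 7 higher and 9 lower genes, where 32.7% of all genes did not (15.6% higher, 17.1% lower). In dKO against Id1KO, 9 were called, 3 higher and 6 lower, where 19.3% of all genes were called (10.6% higher, 8.7% lower), with a median of -0.01. There the libraries did not overlap for 5 higher and 8 lower genes, where 33.2% of all genes did not (17.1% higher, 16.1% lower). The interaction asks whether the change with the Id1 label differs on the 2 Tet2 backgrounds. It is the log2 fold change of dKO over Tet2KO minus that of Id1KO over WT. It was called for 14 genes, 12 above 0 and 2 below, where 14.5% of all genes were called (7.46% above 0, 7.03% below) and 19.5% of those of at least 10 CPM (9.88% above 0, 9.63% below). The median was 0.12 against 0.01. Of the 34 genes, 29 were called in at least 1 of the 6 contrasts, and Keap1, Txn1, Prdx1, Cat and Pgd in none, where 52.8% of all genes and 62.7% of those of at least 10 CPM were called in at least 1. Leaving out each library in turn kept 15 of the 21 calls of Tet2KO against WT in all 12 fits, 3 of the 10 of Id1KO against WT and 6 of the 11 of dKO against WT. It kept 13 of the 20 of dKO against Tet2KO, 3 of the 9 of dKO against Id1KO and 7 of the 14 interactions.

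**Figure D2:**
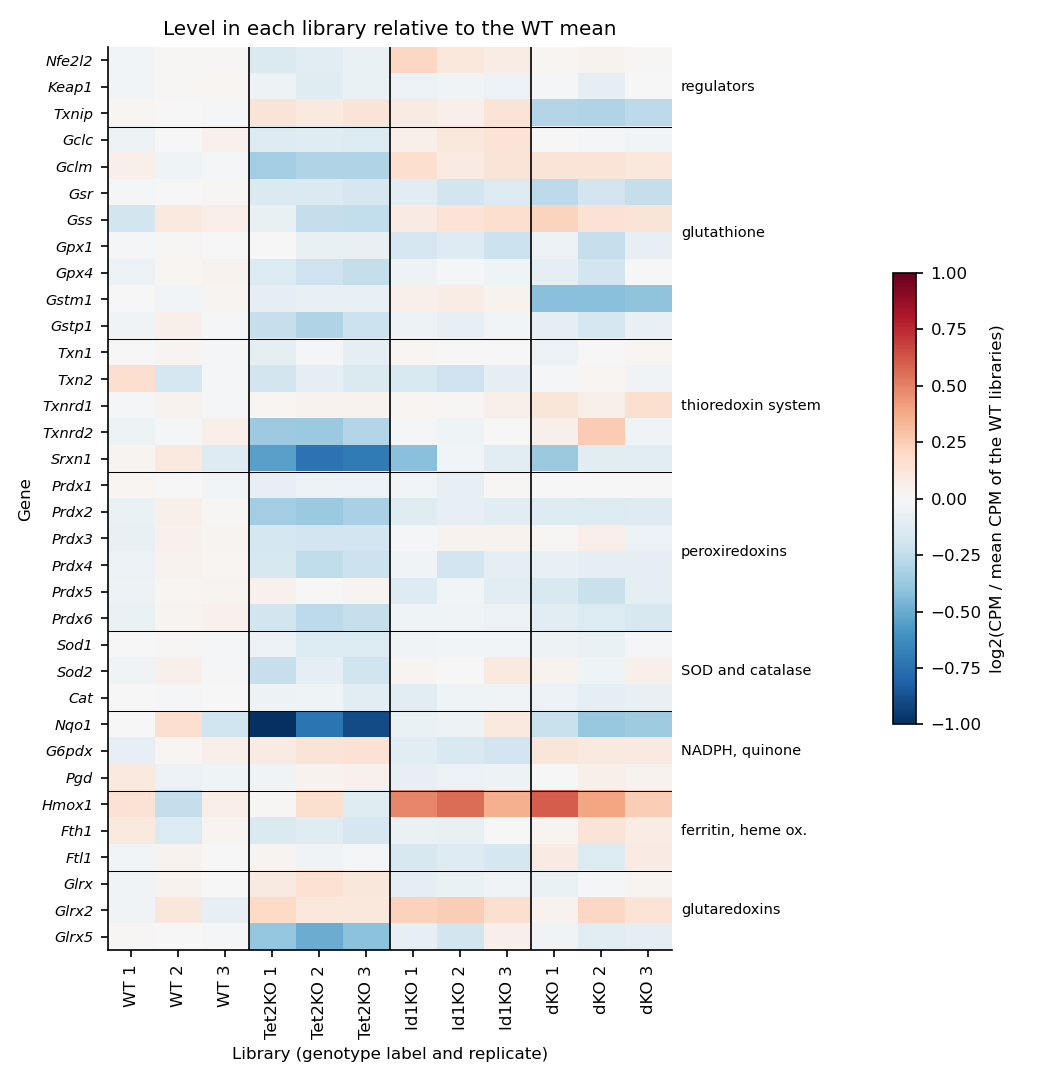
Level of each of the 34 genes in each of the 12 libraries, as log2 of CPM over the mean CPM of the WT libraries, with genes grouped by role. Nqo1 and Srxn1 are the deepest blue in the 3 Tet2KO libraries, Gstm1 and Txnip are blue in the 3 dKO libraries, and Hmox1 is red in the Id1KO and dKO libraries.

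**Figure D3:**
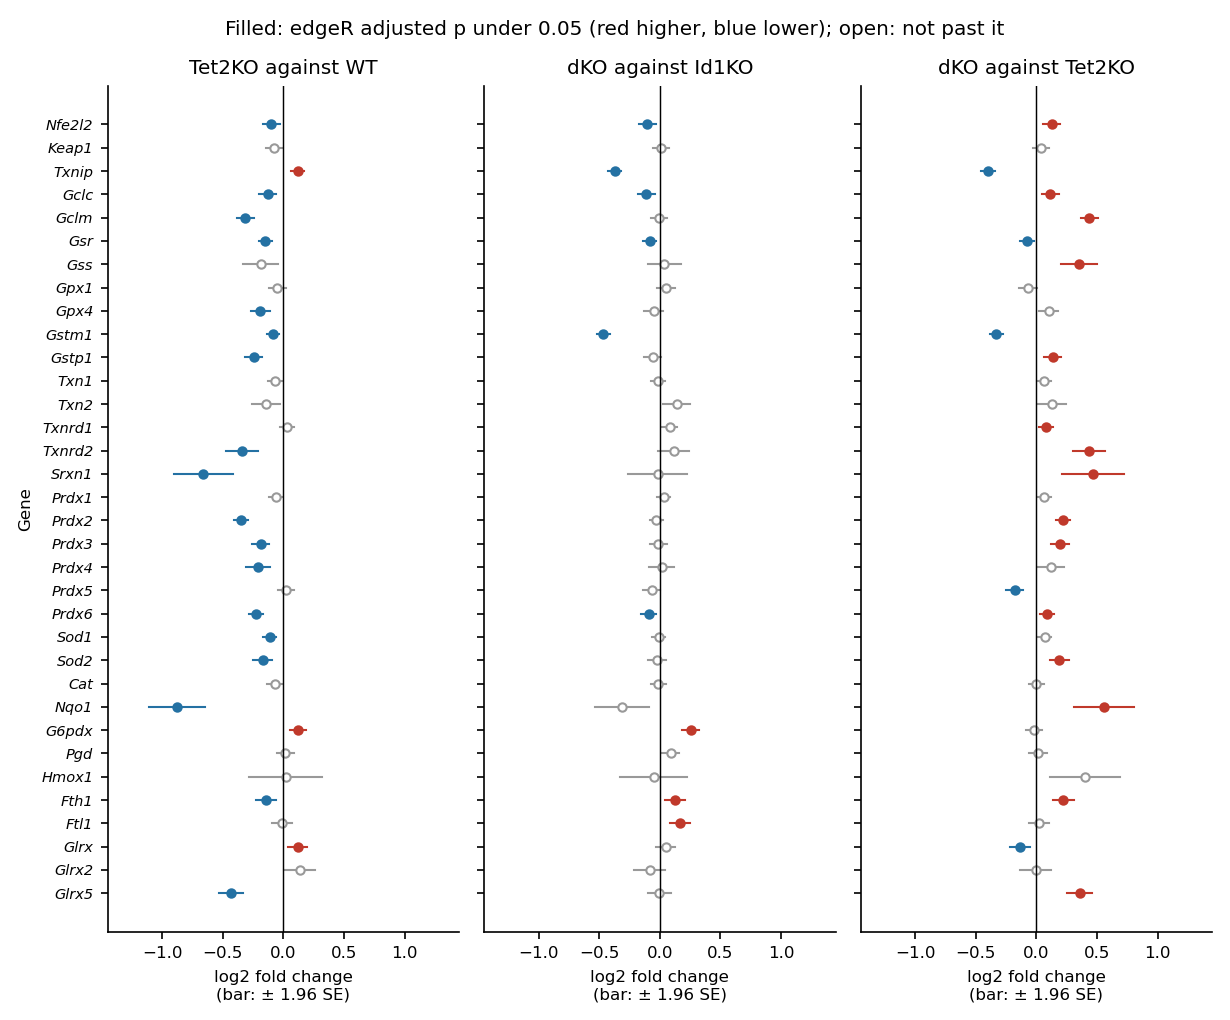
Log2 fold change of each gene in 3 contrasts, with bars spanning the 95% normal interval and filled points for an adjusted p under 0.05 (red higher, blue lower). Tet2KO against WT (left) holds 18 blue and 3 red points, dKO against Id1KO (middle) 6 and 3, and dKO against Tet2KO (right) 5 and 15.

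Markers of red cell precursors moved with the Tet2KO label. Of 22 listed erythroid markers 21 were tested (Ahsp was not analysed here). In libraries labelled Tet2KO against WT 20 fell, with a median log2 fold change of -0.90, where 16.2% of all genes fell. From Tet2KO to dKO 20 rose, with a median of 0.93, where 13.1% of all genes rose. The summed level of the erythroid markers was 1700 to 1759 CPM in WT, 990.0 to 1001 in Tet2KO, 1816 to 1823 in Id1KO and 1644 to 1671 in dKO. The 3 most abundant of them per length were the carbonic anhydrases Car1 and Car2 and Tmem14c, a mitochondrial membrane protein of heme synthesis. From WT to Tet2KO, Car1 went from 493 ± 18 to 270.5 ± 3.1 CPM, Car2 from 487 ± 6.7 to 272 ± 1.2 and Tmem14c from 109 ± 4.3 to 89.7 ± 4.8 (SD, n = 3). In bulk RNA fewer cells of a type and less RNA per cell cannot be told apart. The part of these cells in the values of the antioxidant genes was not tested.

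The sums of other cell types also differed between labels. From WT to Tet2KO the neutrophil sum went from 14554 to 14630 CPM up to 16043 to 16280. Of its 15 markers 7 rose and 4 fell, where 16.6% of all genes rose and 16.2% fell. The mast cell, basophil and eosinophil sum was lowest in dKO, at 433 to 440.0 CPM, against 549 to 561 in WT, 503 to 512 in Tet2KO and 652 to 656 in Id1KO. The monocyte and dendritic sum was lowest in Id1KO, at 1341 to 1351 CPM, against 1498 to 1639 in the other libraries. Megakaryocyte markers summed to 260 to 272 CPM in Id1KO and 183 to 207 elsewhere.

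**Figure D4:**
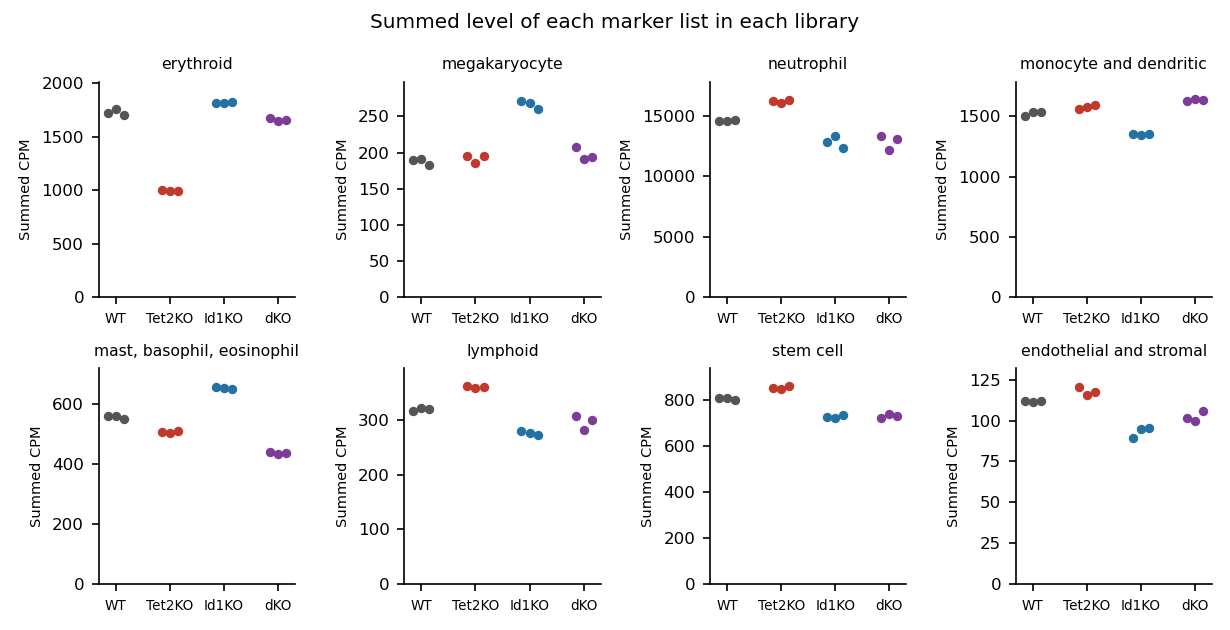
Summed CPM of 8 lists of cell type markers in each library, 1 point per library and a vertical axis from 0. The 3 Tet2KO libraries lie at 990.0 to 1001 CPM in the erythroid panel, below the 9 others at 1644 to 1823.

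Among the regulators, the NRF2 gene itself changed little and its inhibitor Keap1 was not called in any contrast. Nfe2l2 (ENSMUSG00000015839.6, chromosome 2, 75675513 to 75704641) measured 90.04, 92.3 and 92.6 CPM for WT, 83.2, 85.4 and 87.6 for Tet2KO, 106, 98.4 and 96.5 for Id1KO and 92.9, 94.2 and 92.4 for dKO. The 3 Tet2KO libraries were the lowest and the 3 Id1KO libraries the highest, with no overlap of either with WT. It fell with the Tet2KO label against WT (log2 fold change -0.10 ± 0.036 SE, adjusted p = 0.0338), and in dKO against Id1KO (log2 fold change -0.10 ± 0.035 SE, adjusted p = 0.0423). It rose in Id1KO against WT (log2 fold change 0.13 ± 0.035 SE, adjusted p = 0.0155) and in dKO against Tet2KO (log2 fold change 0.13 ± 0.036 SE, adjusted p = 0.0143). Its interaction was -0.0030 (adjusted p = 0.978), with a 95% interval of -0.10 to 0.10. Both falls were lost in 6 of the 12 fits that left out 1 library.

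Keap1 (ENSMUSG00000003308.15, chromosome 9, 21229730 to 21239361) measured 85.6, 87.9 and 88.4 CPM for WT, 84.4, 80.2 and 83.2 for Tet2KO, 84.0, 85.2 and 83.9 for Id1KO and 85.9, 82.0 and 87.0 for dKO. Its Tet2KO libraries lay just below those of WT, with a log2 fold change of -0.08 ± 0.033 (SE; adjusted p = 0.0726), which is not a call, and dKO overlapped both.

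Txnip (ENSMUSG00000038393.14, chromosome 3, 96557957 to 96561883) encodes the thioredoxin-interacting protein, which binds reduced thioredoxin and restrains glucose uptake. It measured 152, 149 and 148 CPM for WT, 163, 160.1 and 164 for Tet2KO, 159, 155 and 164 for Id1KO and 122, 122 and 125 for dKO. All 3 dKO libraries were below all 9 others, while Tet2KO and Id1KO libraries were both above WT. It rose with either single label, by 0.12 and 0.09 on the log2 scale (adjusted p = 0.00277 and 0.0324), and fell in dKO against WT (log2 fold change -0.28 ± 0.029 SE, adjusted p = 4.98e-07). The interaction of -0.49 ± 0.04 (SE; adjusted p = 4.06e-08) was the lowest of the 34, and it was kept in all 12 fits that left out 1 library. With the 3 libraries of a label summed and additive effects fitted, each label has 1 effect shared by both backgrounds. There the gene had -0.12 for the Tet2 label and -0.15 for the Id1 label, neither called. Those values join the rises in the single labels with the falls to dKO. That fit therefore cannot show how the gene moved in Tet2KO or Id1KO alone against WT. The rise in Id1KO was lost in 4 of the 12 fits that left out 1 library, with DESeq2 and with no filter on low counts. An antisense gene, Gm15441, overlaps 606 bp of its exons but was at no more than 0.22 CPM in the genotype means.

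Of the 8 glutathione genes, 6 fell in Tet2KO against WT and none rose (median log2 fold change -0.17), where 16.2% of all genes, and 21.4% of those of at least 10 CPM, fell. Gclm and Gclc encode the modifier and catalytic subunits of the enzyme that makes the first, rate-limiting bond of glutathione, and Gss the synthetase that adds the last residue. Gclm (ENSMUSG00000028124.15, chromosome 3, 122245557 to 122270732) measured 83.7, 78.5 and 80.2 CPM for WT, 63.5, 65.6 and 65.8 for Tet2KO, 90.7, 85.8 and 88.6 for Id1KO and 88.6, 88.4 and 86.8 for dKO. The 3 Tet2KO libraries were the lowest of all, and Id1KO and dKO libraries lay above WT without overlap. Gclm fell in Tet2KO against WT (log2 fold change -0.31 ± 0.035 SE, adjusted p = 1.03e-06) and rose in dKO against Tet2KO (log2 fold change 0.44 ± 0.036 SE, adjusted p = 2.43e-08). It rose in Id1KO against WT (log2 fold change 0.13 ± 0.034 SE, adjusted p = 0.0131), and its interaction was 0.31 ± 0.049 (SE; adjusted p = 0.000255).

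Gclm shares sequence and position with other rows. The antisense transcript Gm17494 overlaps 296 bp of its exons and moved alike, from 3.90 ± 0.086 CPM in WT to 2.29 ± 0.22 in Tet2KO. Whether the counting used strand is not given in the sources used here, so reads of the 2 cannot be told apart with certainty. With every gene that shares 100 bp at 95% identity added to it, its log2 fold changes against WT became -0.054 in dKO and -0.024 in Id1KO, dKO over Tet2KO became 0.035 and the interaction 0.059, and none of these 4 was called. The 17 genes added hold 20.2 times the counts of Gclm. The fall in Tet2KO against WT was still called in that fit, at -0.09, and adding only copies of coding sequence ended no call of the 34 genes.

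Gclc (ENSMUSG00000032350.9, chromosome 9, 77754535 to 77794485) measured 69.1, 71.6 and 73.9 CPM for WT, 65.5, 65.9 and 64.9 for Tet2KO, 74.1, 76.8 and 78.7 for Id1KO and 71.2, 71.0 and 70.4 for dKO. Tet2KO libraries were again lowest and Id1KO libraries highest, as for Nfe2l2, with smaller steps than for Gclm. It fell in Tet2KO against WT (log2 fold change -0.13 ± 0.036 SE, adjusted p = 0.00883) and in dKO against Id1KO (log2 fold change -0.11 ± 0.035 SE, adjusted p = 0.0315), and rose in dKO against Tet2KO (log2 fold change 0.11 ± 0.036 SE, adjusted p = 0.0243). The calls of dKO against Id1KO and against Tet2KO were lost in 5 and 6 of the 12 fits that left out 1 library, and both with DESeq2. Gss stood at 18.9 ± 1.9 CPM (SD, n = 3) for WT, 16.6 ± 1.1 for Tet2KO, 20.6 ± 0.64 for Id1KO and 21.2 ± 0.72 for dKO, and it was called only in dKO against Tet2KO (log2 fold change 0.35 ± 0.074 SE, adjusted p = 0.0014). Its exons overlap 395 bp of Acss2 on the opposite strand, which moved in the same direction there (log2 fold change 0.56 ± 0.057 SE, adjusted p = 4.18e-07).

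Glutathione reductase, which returns oxidized glutathione to its reduced form with NADPH, was lower in all 5 pairwise contrasts and called in each. Gsr (ENSMUSG00000031584.16, chromosome 8, 33652523 to 33698163) measured 335, 338 and 340.2 CPM for WT, 306, 306 and 300.1 for Tet2KO, 314, 297 and 306 for Id1KO and 281, 297 and 287 for dKO. Every WT library was above all 9 others, and the dKO libraries were the lowest. It fell against WT in Tet2KO (log2 fold change -0.15 ± 0.028 SE, adjusted p = 0.000264), in Id1KO (log2 fold change -0.14 ± 0.027 SE, adjusted p = 0.00127) and in dKO (log2 fold change -0.23 ± 0.028 SE, adjusted p = 5.52e-06). The steps of dKO below Tet2KO (-0.08) and below Id1KO (-0.09) were small, and were lost in 7 and 4 of the 12 fits that left out 1 library. The interaction was 0.07, with a 95% interval of -0.01 to 0.14.

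The selenoenzyme Gpx1, which reduces hydrogen peroxide with glutathione, differed with the Id1KO label. Gpx1 (ENSMUSG00000063856.7, chromosome 9, 108338903 to 108340343) measured 880.3, 899 and 896 CPM for WT, 888, 846 and 847 for Tet2KO, 794, 817 and 767 for Id1KO and 857, 761 and 843 for dKO. Id1KO libraries lay below WT without overlap, and dKO libraries spread widely. It fell in Id1KO against WT (log2 fold change -0.17 ± 0.036 SE, adjusted p = 0.00315) and in dKO against WT (log2 fold change -0.12 ± 0.037 SE, adjusted p = 0.0245), and the second call was lost in 3 of the 12 fits that left out 1 library, with the largest adjusted p without dKO replicate 2, at 0.137. Gpx4, the peroxidase that repairs lipid peroxides in membranes and guards against ferroptosis, stood at 187 ± 6.4 CPM (SD, n = 3) for WT, 163 ± 5.8 for Tet2KO, 182 ± 1.8 for Id1KO and 175 ± 12 for dKO. It fell only in Tet2KO against WT (log2 fold change -0.19 ± 0.04 SE, adjusted p = 0.000874), and its transcribed copy Gpx4-ps2 held 6.35% as many counts.

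Glutathione transferases conjugate glutathione to reactive compounds. Gstm1 (ENSMUSG00000058135.12, chromosome 3, 108012255 to 108017973) measured 235, 231 and 239 CPM for WT, 219, 223 and 223 for Tet2KO, 243, 246 and 240.2 for Id1KO and 176, 175 and 177 for dKO. The 3 dKO libraries were close to each other and far below the 9 others, which ranged from 219 to 246 CPM. In dKO it fell against Id1KO (log2 fold change -0.47 ± 0.026 SE, adjusted p = 6.84e-11), against WT (log2 fold change -0.41 ± 0.026 SE, adjusted p = 4.77e-10) and against Tet2KO (log2 fold change -0.33 ± 0.026 SE, adjusted p = 1.23e-08). Its fall in Tet2KO against WT was -0.08 ± 0.025 (SE; adjusted p = 0.0144) and lost in 3 of the 12 fits that left out 1 library, and the interaction was -0.38 ± 0.036 (SE; adjusted p = 3.27e-07). The order of the genotype means, Id1KO above WT above Tet2KO above dKO, was also that of the summed mast cell, basophil and eosinophil markers, whose part in this result was not tested. Gstp1 followed another order, at 105 ± 3.4 CPM (SD, n = 3) for WT, 88.4 ± 2.8 for Tet2KO, 101 ± 1.8 for Id1KO and 97.0 ± 3.3 for dKO: it fell in Tet2KO against WT (log2 fold change -0.25 ± 0.035 SE, adjusted p = 2.07e-05) and rose in dKO against Tet2KO (log2 fold change 0.13 ± 0.036 SE, adjusted p = 0.00945).

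**Figure D5:**
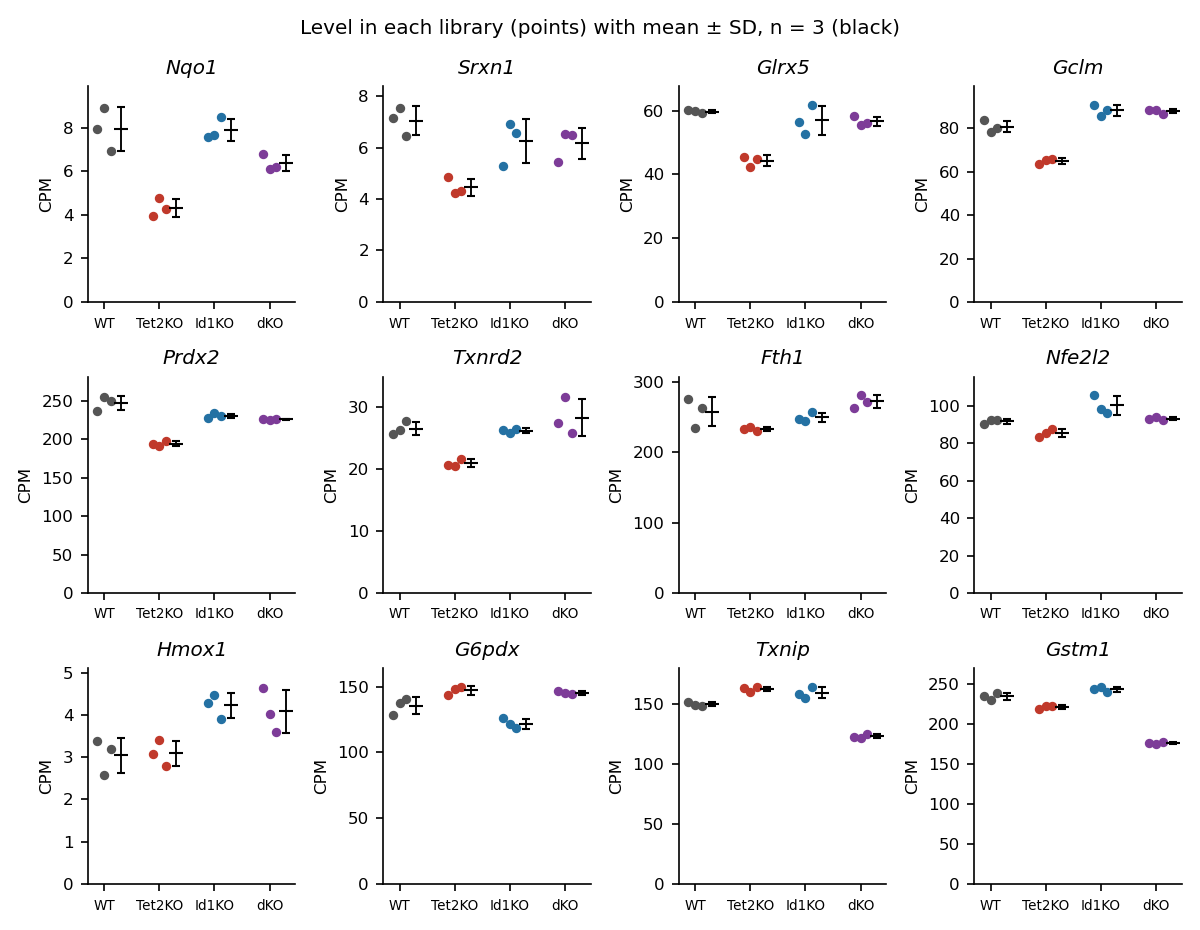
CPM of 12 of the genes in each library (points, 3 per genotype label) with mean ± SD in black; every vertical axis starts at 0. Nqo1, Srxn1, Glrx5, Gclm, Prdx2 and Txnrd2 have their 3 lowest points in Tet2KO, whereas Txnip and Gstm1 have them in dKO.

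In the thioredoxin system, the cytosolic pair differed little between labels and the mitochondrial reductase and sulfiredoxin fell with the Tet2KO label. Thioredoxin passes electrons from thioredoxin reductase to peroxiredoxins and other disulfides. Txn1 (ENSMUSG00000028367.5, chromosome 4, 57943373 to 57956411) measured 199, 203 and 197 CPM for WT, 187, 197 and 186 for Tet2KO, 202, 199 and 199 for Id1KO and 192, 200.3 and 202 for dKO. The libraries overlapped in each of the 5 pairwise contrasts, and the largest log2 fold change, in Tet2KO against WT, was -0.07 ± 0.03 (SE; adjusted p = 0.0749). Its reductase Txnrd1 (ENSMUSG00000020250.10, chromosome 10, 82833951 to 82897712) measured 145, 151 and 145 CPM for WT, 149.5, 151 and 151 for Tet2KO, 149.7, 149 and 154 for Id1KO and 159.8, 154 and 164 for dKO. Only the dKO libraries stood above the rest, and its rise over WT was 0.11 ± 0.03 (SE; adjusted p = 0.0105). A rise over Tet2KO of 0.08 was called at an adjusted p of 0.0492 and lost in 11 of the 12 fits that left out 1 library.

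The mitochondrial reductase Txnrd2 (ENSMUSG00000075704.16, chromosome 16, 18426384 to 18479073) measured 25.6, 26.3 and 27.7 CPM for WT, 20.6, 20.5 and 21.6 for Tet2KO, 26.4, 25.8 and 26.5 for Id1KO and 27.4, 31.7 and 25.8 for dKO. The 3 Tet2KO libraries were below the 9 others. In Tet2KO it fell against WT (log2 fold change -0.34 ± 0.066 SE, adjusted p = 0.000491) and rose in dKO against Tet2KO (log2 fold change 0.44 ± 0.067 SE, adjusted p = 6.9e-05), with an interaction of 0.45 ± 0.092 (SE; adjusted p = 0.00229) that was called in all 12 fits that left out 1 library. Mitochondrial thioredoxin Txn2 stood at 80.2 ± 9.5 CPM (SD, n = 3) for WT, 72.7 ± 2.2 for Tet2KO, 72.3 ± 2.9 for Id1KO and 79.5 ± 1.5 for dKO. It was called in no pairwise contrast, its 3 WT libraries spreading from 71.3 to 90.2 CPM, while its interaction of 0.28 ± 0.082 (SE; adjusted p = 0.0273) was lost in 6 of the 12 fits that left out 1 library.

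Sulfiredoxin restores peroxiredoxins that hydrogen peroxide has over-oxidized, and its gene is a well known target of NRF2. Srxn1 (ENSMUSG00000032802.8, chromosome 2, 152105516 to 152111376) measured 7.15, 7.53 and 6.43 CPM for WT, 4.84, 4.23 and 4.31 for Tet2KO, 5.27, 6.92 and 6.55 for Id1KO and 5.45, 6.53 and 6.498 for dKO. The Tet2KO libraries were the 3 lowest, and Id1KO and dKO overlapped WT. It fell in Tet2KO against WT (log2 fold change -0.66 ± 0.13 SE, adjusted p = 0.000433), which is 36.7%, and rose in dKO against Tet2KO (log2 fold change 0.47 ± 0.13 SE, adjusted p = 0.0117). Its interaction of 0.64 ± 0.18 (SE; adjusted p = 0.0189) was the highest of the 34. The gene rests on 71 to 146 counts per library, so its standard errors are wide.

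Peroxiredoxins reduce peroxides with a reactive cysteine, and 4 of the 6 fell in Tet2KO against WT with none higher (median log2 fold change -0.20), where 16.2% of all genes fell. Prdx2, an abundant protein of red cells, moved most. Its libraries measured 237, 256 and 249.98 CPM for WT, 195, 191 and 198 for Tet2KO, 228, 234 and 230.2 for Id1KO and 227, 225 and 226 for dKO. Tet2KO was lowest without overlap, and Id1KO and dKO lay between it and WT. Prdx2 fell in Tet2KO against WT (log2 fold change -0.35 ± 0.029 SE, adjusted p = 2.34e-08), and less in Id1KO (log2 fold change -0.10 ± 0.029 SE, adjusted p = 0.0206) and in dKO (log2 fold change -0.13 ± 0.029 SE, adjusted p = 0.00311), and its interaction was 0.32 ± 0.041 (SE; adjusted p = 2.77e-05). The call in Id1KO was lost in 4 of the 12 fits that left out 1 library (largest adjusted p = 0.136). With the libraries of a label summed its value was 0.06, the opposite sign. That additive fit joins both Tet2 backgrounds in 1 effect, so it cannot show the step in Id1KO against WT alone. The overlapping genes Junb and Rnaseh2a on the opposite strand changed by 0.08 and -0.06 in Tet2KO against WT and were not called.

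The mitochondrial Prdx3 stood at 103 ± 4.3 CPM (SD, n = 3) for WT, 90.3 ± 0.69 for Tet2KO, 104 ± 2.1 for Id1KO and 103 ± 4.3 for dKO, falling in Tet2KO against WT (log2 fold change -0.19 ± 0.036 SE, adjusted p = 0.0005) and rising in dKO against Tet2KO (log2 fold change 0.19 ± 0.037 SE, adjusted p = 0.00061). Prdx4 of the endoplasmic reticulum, on chromosome X, stood at 32.0 ± 1.1 CPM (SD, n = 3) for WT, 27.6 ± 0.97 for Tet2KO, 29.7 ± 1.7 for Id1KO and 30.1 ± 0.26 for dKO and fell in Tet2KO against WT (log2 fold change -0.21 ± 0.052 SE, adjusted p = 0.00419). Prdx6, which also has phospholipase activity, stood at 292 ± 11 CPM (SD, n = 3) for WT, 249.7 ± 7 for Tet2KO, 283 ± 2.4 for Id1KO and 265 ± 4.3 for dKO. It fell against WT in Tet2KO (log2 fold change -0.22 ± 0.03 SE, adjusted p = 9.75e-06) and in dKO (log2 fold change -0.14 ± 0.03 SE, adjusted p = 0.00254), and in dKO against Id1KO (log2 fold change -0.09 ± 0.03 SE, adjusted p = 0.0342). The interactions of Prdx3, Prdx4 and Prdx6, at 0.17, 0.23 and 0.13, were lost in 7, 9 and 10 of the 12 fits that left out 1 library.

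Prdx5 behaved otherwise. Prdx5 (ENSMUSG00000024953.17, chromosome 19, 6906697 to 6910106) measured 135, 142 and 142 CPM for WT, 144, 139 and 142 for Tet2KO, 128, 137 and 129 for Id1KO and 126, 119.6 and 131 for dKO. The dKO libraries were below WT and Tet2KO without overlap, and Tet2KO overlapped WT. It fell in dKO against WT (log2 fold change -0.16 ± 0.036 SE, adjusted p = 0.00387) and in dKO against Tet2KO (log2 fold change -0.18 ± 0.036 SE, adjusted p = 0.00098), and its change in Tet2KO against WT was 0.02, with a 95% interval of -0.05 to 0.09. Trmt112 overlaps 409 bp of its exons on the opposite strand and changed in dKO against WT (log2 fold change -0.14 ± 0.043 SE, adjusted p = 0.0297). Prdx1, the cytosolic member, stood at 191 ± 3.1 CPM (SD, n = 3) for WT, 183 ± 1.8 for Tet2KO, 187 ± 5.9 for Id1KO and 191 ± 0.74 for dKO and was not called in any contrast.

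Superoxide dismutases turn superoxide into hydrogen peroxide, in the cytosol (Sod1) and in the mitochondrial matrix (Sod2), and catalase breaks hydrogen peroxide down. Sod1 stood at 233 ± 2.9 CPM (SD, n = 3) for WT, 216 ± 6.9 for Tet2KO, 228 ± 1.1 for Id1KO and 226 ± 3.8 for dKO and fell in Tet2KO against WT (log2 fold change -0.11 ± 0.027 SE, adjusted p = 0.0035). Sod2 stood at 106 ± 3.2 CPM (SD, n = 3) for WT, 94.3 ± 4.8 for Tet2KO, 109 ± 3.6 for Id1KO and 108 ± 3.7 for dKO. It fell in Tet2KO against WT (log2 fold change -0.17 ± 0.039 SE, adjusted p = 0.00198) and rose in dKO against Tet2KO (log2 fold change 0.19 ± 0.04 SE, adjusted p = 0.00131). With the 25 genes that share 100 bp with it added, which hold 16.7 times its counts, Sod2 was higher in Tet2KO than in WT (log2 fold change 0.13, adjusted p = 0.00404), and the rise in dKO was no longer called (0.07). Cat stood at 101 ± 0.85 CPM (SD, n = 3) for WT, 96.2 ± 2.6 for Tet2KO, 96.8 ± 2.7 for Id1KO and 96.0 ± 0.96 for dKO, and its 3 log2 fold changes against WT were -0.07, -0.06 and -0.07, none of them called.

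The quinone reductase Nqo1, a classical NRF2 target, had the largest difference of the 34 genes. Nqo1 (ENSMUSG00000003849.8, chromosome 8, 107388225 to 107403206) measured 7.93, 8.92 and 6.92 CPM for WT, 3.92, 4.77 and 4.25 for Tet2KO, 7.58, 7.65 and 8.47 for Id1KO and 6.78, 6.11 and 6.202 for dKO. The 3 Tet2KO libraries were below the 9 others, dKO libraries lay between Tet2KO and WT without touching either, and Id1KO overlapped WT. In Tet2KO it fell against WT (log2 fold change -0.88 ± 0.12 SE, adjusted p = 1.06e-05), a decrease of 45.6%, and rose in dKO against Tet2KO (log2 fold change 0.56 ± 0.13 SE, adjusted p = 0.0024). Its log2 fold change in dKO against WT was -0.32 ± 0.11 (SE; adjusted p = 0.0525), just outside the threshold. The interaction of 0.56 ± 0.16 (SE; adjusted p = 0.0258) was lost in 6 of the 12 fits that left out 1 library and with DESeq2, and the gene rests on 64 to 173 counts per library.

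Glucose-6-phosphate dehydrogenase opens the pentose phosphate pathway and so supplies NADPH. G6pdx (ENSMUSG00000031400.10, chromosome X, 74409483 to 74429194) measured 128, 138 and 140.5 CPM for WT, 144, 148 and 149.9 for Tet2KO, 126, 122 and 118 for Id1KO and 147, 145 and 144 for dKO. Tet2KO and dKO libraries were above WT, and Id1KO libraries were the lowest, with no overlap. It rose with the Tet2KO label against WT (log2 fold change 0.12 ± 0.034 SE, adjusted p = 0.00891) and in dKO against Id1KO (log2 fold change 0.25 ± 0.035 SE, adjusted p = 2.09e-05), and fell in Id1KO against WT (log2 fold change -0.15 ± 0.034 SE, adjusted p = 0.00513). The rise against WT was lost without WT replicate 1 (adjusted p = 0.0512). G6pdx and Prdx4 are X-linked, and the sex-linked transcripts Xist and Ddx3y, named after their values were seen, differed between the labels: Xist was 262 ± 10 CPM (SD, n = 3) for WT, 10.8 ± 1.1 for Tet2KO, 64.9 ± 4.3 for Id1KO and 16.7 ± 0.36 for dKO, and Ddx3y 48.9 ± 2.5 CPM (SD, n = 3) for WT, 87.7 ± 3.4 for Tet2KO, 93.4 ± 4.5 for Id1KO and 82.1 ± 3 for dKO. Xist was lower and Ddx3y higher in every knockout label than in WT. Xist was also called lower in dKO than in Id1KO, and higher in dKO than in Tet2KO (log2 fold change 0.62). Ddx3y was called lower in dKO than in Id1KO, but was not called in dKO against Tet2KO (adjusted p = 0.119). The interaction was called for both, at 2.63 for Xist and -1.03 for Ddx3y. A difference in Xist therefore goes with each of the 6 contrasts given here, for every gene and not only the X-linked ones. The part of these differences in the results was not tested. Pgd, the next NADPH-producing enzyme of the pathway, stood at 162 ± 9.7 CPM (SD, n = 3) for WT, 164 ± 4.8 for Tet2KO, 155 ± 1.8 for Id1KO and 165 ± 2.8 for dKO and was not called in any contrast.

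The ferritin chains did not move together. Fth1, the heavy chain with ferroxidase activity (ENSMUSG00000024661.7, chromosome 19, 9980598 to 9985098), measured 275, 235 and 263 CPM for WT, 233, 236 and 229.6 for Tet2KO, 247, 245 and 257 for Id1KO and 263, 281 and 271 for dKO. Tet2KO libraries overlapped WT because WT replicate 2 was low, and dKO libraries were above both Tet2KO and Id1KO. Fth1 fell in Tet2KO against WT (log2 fold change -0.15 ± 0.043 SE, adjusted p = 0.0123) and rose in dKO against Tet2KO (log2 fold change 0.22 ± 0.043 SE, adjusted p = 0.00061), with an interaction of 0.27 ± 0.06 (SE; adjusted p = 0.00469). The fall was lost in 3 of the 12 fits that left out 1 library. Its rise in dKO over Id1KO (log2 fold change 0.13 ± 0.042 SE, adjusted p = 0.0433) was lost in 8 of the 12 fits that left out 1 library.

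Ftl1, the light chain (ENSMUSG00000050708.16, chromosome 7, 45457944 to 45459884), measured 837, 874 and 854 CPM for WT, 872, 835 and 843 for Tet2KO, 765, 783 and 756 for Id1KO and 904, 777 and 904 for dKO. Id1KO libraries were below all WT and Tet2KO libraries, and dKO replicate 2 stood apart from the other 2 dKO libraries. It fell in Id1KO against WT (log2 fold change -0.15 ± 0.042 SE, adjusted p = 0.0154) and rose in dKO against Id1KO (log2 fold change 0.17 ± 0.042 SE, adjusted p = 0.00778), calls lost in 3 and 2 of the 12 fits that left out 1 library. In Tet2KO against WT its log2 fold change was -0.01, with a 95% interval of -0.09 to 0.07. Several marker sums were lowest in the same Id1KO libraries, not only that of monocytes and dendritic cells. Lymphoid markers summed to 273 to 280.2 CPM there, and endothelial and stromal markers to 89.7 to 95.7, below all other libraries. Neutrophil and stem cell means, at 12830 and 726, were also lowest in Id1KO but close to dKO, at 12834 and 729. Gene by gene few of these markers were called in Id1KO against WT, where 7.26% of all genes rose and 7.77% fell. Of the tested lymphoid markers 2 of 12 fell, of the endothelial and stromal 1 of 3, and of the stem cell 2 of 11, with none higher. Of 15 neutrophil markers 2 rose and 2 fell. Median log2 fold changes were -0.27, 0.33, 0.10 and -0.01 in that order. Of 10 monocyte and dendritic markers 7 fell and 1 rose. The part of these cell types in the Ftl1 result was not tested. The table holds copies of Ftl1, and the most abundant, Ftl1-ps1, had 1.15% as many counts.

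Heme oxygenase, which breaks heme down to biliverdin and frees its iron, was the least abundant per length. Hmox1 (ENSMUSG00000005413.8, chromosome 8, 75093621 to 75100589) measured 3.37, 2.58 and 3.19 CPM for WT, 3.06, 3.40 and 2.80 for Tet2KO, 4.28, 4.48 and 3.91 for Id1KO and 4.63, 4.01 and 3.60 for dKO. Every Id1KO and dKO library was above every WT library, and Tet2KO overlapped WT. It rose in Id1KO against WT (log2 fold change 0.47 ± 0.14 SE, adjusted p = 0.0298), a difference of 38.7%, while dKO against WT (log2 fold change 0.42 ± 0.15 SE, adjusted p = 0.0502) and dKO against Tet2KO (log2 fold change 0.40 ± 0.15 SE, adjusted p = 0.0514) missed the threshold narrowly. With 50 to 86 counts per library, the Id1KO call was lost in 4 of the 12 fits that left out 1 library and with DESeq2.

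Glutaredoxins pass electrons from glutathione to protein disulfides, and the mitochondrial Glrx5 instead carries iron-sulfur clusters, which heme synthesis in red cell precursors needs. Glrx5 (ENSMUSG00000021102.4, chromosome 12, 105032688 to 105042906) measured 60.2, 59.8 and 59.1 CPM for WT, 45.6, 42.4 and 44.9 for Tet2KO, 56.4, 52.7 and 61.7 for Id1KO and 58.3, 55.6 and 56.2 for dKO. The 3 Tet2KO libraries were far below the 9 others. It fell in Tet2KO against WT (log2 fold change -0.43 ± 0.05 SE, adjusted p = 1.52e-06) and rose in dKO against Tet2KO (log2 fold change 0.36 ± 0.051 SE, adjusted p = 3.45e-05), and its interaction of 0.43 ± 0.07 (SE; adjusted p = 0.000346) was kept in all 12 fits that left out 1 library. Its step in Tet2KO was in the direction of the erythroid markers, whose part in it was not tested.

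Cytosolic Glrx (ENSMUSG00000021591.8, chromosome 13, 75839868 to 75850154) moved the other way and measured 50.02, 52.4 and 51.3 CPM for WT, 54.5, 56.8 and 55.4 for Tet2KO, 48.3, 48.8 and 49.9 for Id1KO and 49.1, 50.5 and 52.3 for dKO. Tet2KO libraries were the 3 highest. It rose in Tet2KO against WT (log2 fold change 0.12 ± 0.039 SE, adjusted p = 0.027) and fell in dKO against Tet2KO (log2 fold change -0.14 ± 0.04 SE, adjusted p = 0.0173), calls lost in 4 and 2 of the 12 fits that left out 1 library. Glrx2 (ENSMUSG00000018196.18, chromosome 1, 143716338 to 143749676) measured 17.0, 18.8 and 16.4 CPM for WT, 19.9, 18.6 and 18.6 for Tet2KO, 20.3, 20.6 and 19.4 for Id1KO and 17.7, 20 and 19.1 for dKO. Only Id1KO was above WT without overlap (log2 fold change 0.21 ± 0.065 SE, adjusted p = 0.0323). Leaving out 1 library ended that call in 4 of 12 fits. With the 95 genes sharing 100 bp of sequence with Glrx2 added, which hold 126 times its counts, that change became -0.033, and how reads of shared sequence were assigned is not stated.

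Members were also grouped by place in the cell, after the values were seen. Of the 6 taken as mitochondrial (Txn2, Txnrd2, Prdx3, Sod2, Glrx2 and Glrx5), 4 fell in Tet2KO against WT and 4 rose in dKO against Tet2KO. Over all genes 16.2% fell and 13.1% rose in these 2 contrasts, and at 10 CPM or more 21.4% and 17.3%. Their median log2 fold changes were -0.18 and 0.19, and the Sod2 calls depend on shared sequence as given above. Members that are mitochondrial only in part were left out. Prdx5 is 1 of them and went the other way, at 0.02 (not called) in Tet2KO against WT and -0.18 (called) in dKO against Tet2KO. Of 16 members known as NRF2 targets, 9 fell and 1 rose in Tet2KO against WT, where 16.2% of all genes fell and 16.6% rose (21.4% and 19.2% at 10 CPM or more), with a median of -0.11 against -0.12 for all 34. In dKO against Tet2KO 8 of the 16 rose and 2 fell, where 13.1% of all genes rose and 13.4% fell.

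Each label was also compared between backgrounds that share no library. The Tet2 label separates Tet2KO from WT and dKO from Id1KO, and across the 34 genes, which are not independent replicates, the 2 sets of fold changes had a Pearson r of 0.20 and a Spearman rho of 0.15. Both contrasts called 8 of the 34 genes, 38.1% of the 21 of the first and 88.9% of the 9 of the second, where 10.8% of all genes, and 13.1% of those of at least 10 CPM, were called in both. Of these, 6 had the same sign, where 9.41% of all genes, and 11.3% at 10 CPM, did: G6pdx was higher in both, and Nfe2l2, Gclc, Gsr, Prdx6 and Gstm1 lower. Txnip and Fth1 changed sign. Several genes that fell in Tet2KO against WT had values near 0 in dKO against Id1KO, among them Srxn1 at -0.02, Glrx5 at -0.01 and Gclm at -0.01. The Id1 label separates Id1KO from WT and dKO from Tet2KO, with an r of 0.18, a rho of 0.19 and 5 genes called in common, 50% of 10 and 25% of 20. In both, 6.49% of all genes were called, 5.3% with the same sign, and 9.14% of those of at least 10 CPM, 7.41% with the same sign. Nfe2l2 and Gclm rose and Gsr fell in both, whereas Txnip and Prdx2 changed sign.

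Genes of the same pathways outside the 34 were counted list by list. Each count in Tet2KO against WT stands beside 16.6% of all genes that rose and 16.2% that fell. Among genes of at least 10 CPM these shares were 19.2% and 21.4%. Several lists lie near these shares, and no list was tested as a set. Among 11 tested partners and repressors of NRF2, 1 rose and 1 fell in Tet2KO against WT. Bach2, a repressor related to BACH1, rose from 4.56 ± 0.2 to 8.77 ± 0.3 CPM (log2 fold change 0.94 ± 0.10 SE, adjusted p = 8.3e-07), and stood at 6.18 ± 0.54 in dKO. Bach1 itself, the heme-sensitive repressor of Hmox1, was lowest in dKO at 62.0 ± 2.6 CPM against 75.4 ± 1.3 in WT (log2 fold change -0.28 ± 0.036 SE, adjusted p = 9.04e-06).

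Of 25 other glutathione genes, 4 rose and 6 fell in Tet2KO against WT. Mgst2, a microsomal transferase, fell in dKO against WT (log2 fold change -0.76 ± 0.061 SE, adjusted p = 1.97e-08), from 22.5 ± 0.55 to 13.2 ± 0.68 CPM, lowest in dKO as Gstm1 was. Ggt5 fell in dKO against Tet2KO (log2 fold change -0.79 ± 0.16 SE, adjusted p = 0.000936). Of 17 other thioredoxin and methionine sulfoxide reductase genes, 2 rose and 3 fell in Tet2KO against WT. Sesn3, a sestrin, rose there (log2 fold change 0.57 ± 0.06 SE, adjusted p = 3.93e-07), and Txnl1 fell (log2 fold change -0.29 ± 0.036 SE, adjusted p = 4.1e-06).

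Of 12 other NADPH genes, 2 rose and 3 fell in Tet2KO against WT. Nnt, the mitochondrial transhydrogenase, rose (log2 fold change 0.77 ± 0.049 SE, adjusted p = 3.8e-10), from 81.1 ± 8.8 to 138 ± 3.6 CPM. It was also above WT in Id1KO (log2 fold change 0.53 ± 0.05 SE, adjusted p = 3.37e-07) and in dKO (log2 fold change 0.60 ± 0.05 SE, adjusted p = 3.42e-08). The table has a second row with the symbol Nnt, at 13.2 CPM in WT replicate 3 and listed at 0 in the other 11 libraries. The first row's value in WT replicate 3, 71.2 CPM, therefore depends on how reads were split between the 2 rows. WT replicates 1 and 2 measured 84.2 and 87.8 CPM in the first row, and the Tet2KO libraries 134 to 141. Taldo1 of the pentose phosphate pathway fell in dKO against WT (log2 fold change -0.24 ± 0.032 SE, adjusted p = 1.54e-05).

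Of 22 other iron and heme genes, 3 rose and 8 fell in Tet2KO against WT, where 16.6% of all genes rose and 16.2% fell. In dKO against Tet2KO 10 rose with none lower, where 13.1% of all genes rose and 13.4% fell. Blvrb, a biliverdin reductase abundant in red cells, fell in Tet2KO against WT (log2 fold change -0.75 ± 0.051 SE, adjusted p = 1.2e-09), from 81.1 ± 3.5 to 48.4 ± 3.5 CPM. Slc40a1, the iron exporter ferroportin, fell (log2 fold change -0.73 ± 0.064 SE, adjusted p = 4.36e-08), from 48.9 ± 1.7 to 29.4 ± 3.4 CPM. Of 12 ferroptosis and oxidant source genes, 3 rose and 2 fell. Cybb, the catalytic subunit of the phagocyte NADPH oxidase, rose in Tet2KO against WT (log2 fold change 0.61 ± 0.048 SE, adjusted p = 9e-09) and in dKO against Id1KO (log2 fold change 0.55 ± 0.049 SE, adjusted p = 7.47e-08). Selenop, a plasma selenium carrier, rose in Tet2KO against WT (log2 fold change 0.36 ± 0.039 SE, adjusted p = 5.34e-07). Of 7 genes that insert selenocysteine, 3 fell in Tet2KO against WT and none rose. Sephs2 fell (log2 fold change -0.16 ± 0.027 SE, adjusted p = 0.000113), and Trnau1ap fell in dKO against WT (log2 fold change -0.20 ± 0.055 SE, adjusted p = 0.0121).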

How the data were processed

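RNA of donor progenitor cells was sequenced as 12 libraries from total RNA after ribosomal depletion, as the labels' protocols say. The authors aligned reads to mm10 with STAR and estimated expected counts per gene with RSEM, per the submitters' processing notes, which list the tools without version or settings. The strand setting of the counting is not given in the sources used here. The deposited expected counts (4.92% to 5.26% of values not whole) were rounded. The 34 genes and all lists were chosen with earlier results of these data known.

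Counts were tested with edgeR 4.0.16 (R 4.3.3): genes kept by filterByExpr with a minimum count of 10, TMM scaling, 1 mean per genotype label over all 12 libraries, quasi-likelihood tests, and Benjamini-Hochberg adjustment over all 14346 tested genes (threshold 0.05). Log2 fold changes come from that fit, and CPM from the rounded counts. All 12 values are given for Nfe2l2, Keap1, the 5 most abundant members, and up to the 3 highest and 3 lowest members called without overlap in each contrast (for the interaction, called), and also for Prdx2, chosen after its values were seen. Outside the 34, up to 2 called genes per pathway list with the largest change among those averaging at least 5 CPM in a compared group are named. The scripts were tested on simulated data. Alternatives were DESeq2 1.42.0, other scalings, no filter, a replicate block, libraries summed per label, sequence copies added to members, and leaving out each library. Library totals of 15706368 to 19959153 limit the precision of low genes most. Gene models were GENCODE M21 (GRCm38), promoters RefSeq, and copies were found with BLAST 2.17.0. Libraries carrying the same number in different labels were checked for shared deviations, with correlations from -0.097 to 0.113 over 18 pairs, 1 of them over 0.1, so the number was not taken to pair them.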

Additional observations from a re-analysis of the deposited data

Results flagged for a closer look

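For 14 genes the change with the Id1 label differed between the 2 Tet2 backgrounds by the interaction term of the edgeR quasi-likelihood fit, which was called for 14.5% of all genes. The values are the log2 fold change of dKO over Tet2KO minus that of Id1KO over WT. The difference was above 0 for the thioredoxin genes Srxn1 (0.64), Txnrd2 (0.45) and Txn2 (0.28), for the quinone reductase Nqo1 (0.56), and for the iron-sulfur carrier Glrx5 (0.43). It was also above 0 for the peroxiredoxins Prdx2 (0.32), Prdx4 (0.23), Prdx3 (0.17) and Prdx6 (0.13), for the glutathione genes Gclm (0.31) and Gstp1 (0.19), and for the ferritin heavy chain Fth1 (0.27). It was below 0 for the thioredoxin-interacting protein Txnip (-0.49) and the transferase Gstm1 (-0.38). Of the 14, the calls for Gclm, Txnrd2, Txnip, Prdx2, Fth1, Gstm1 and Glrx5 were kept in each of the 12 fits that left out 1 library. With every gene that shares 100 bp with Gclm added to it, its value was 0.059 and no longer called. The sex-linked transcripts Xist and Ddx3y also had called interactions, and the part of that difference in these 14 results was not tested.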

How the results depend on the processing

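With the 3 libraries of a label summed to 1 sample and additive effects of the 2 labels fitted, edgeR called 232 genes in Tet2KO against WT, 7 in Id1KO against WT, 11 in dKO against WT, 7 in dKO against Tet2KO and, for dKO over Id1KO, 232. It called 0 of the 34 genes in each of these contrasts, where 4, 5, 2, 5 and 4 had an unadjusted p under 0.05. No interaction can be fitted there, the spread rests on 1 residual comparison, and on simulated counts this fit made more false calls than its threshold allows. It reversed Fth1 in dKO against Id1KO (-0.0060), Txnip in Tet2KO (-0.12) and in Id1KO (-0.15) against WT, and Prdx2 in Id1KO against WT (0.060). The additive fit gives each label 1 effect shared by both backgrounds. These genes had called interactions, so the turned signs come from joining unlike changes. They cannot show whether the separate contrasts hold. Adding every gene that shares 100 bp at 95% identity reversed Gclm in dKO (-0.054) and in Id1KO (-0.024) against WT, Glrx2 in Id1KO against WT (-0.033) and Sod2 in Tet2KO against WT (0.13, called), and ended 8 further calls. DESeq2 called 1418 genes in Id1KO against WT, 1350 for the interaction, and 9 members for the interaction, losing Nqo1, Srxn1, Prdx3, Prdx4 and Prdx6. The cause was not tested.

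The replicate number as a block, which the data did not show to pair libraries, left 5 members called in dKO against Id1KO, without Nfe2l2, Gsr, Prdx6 and Fth1. In the order Tet2KO, Id1KO and dKO against WT, dKO against Tet2KO, and the interaction, it called 20, 10, 10, 17 and 12 members. Leaving out 1 library gave 16 to 22, 4 to 11, 8 to 12, 14 to 20 and 9 to 15 members in that order, and 3 to 11 in dKO against Id1KO. Genes called ran from 3808 to 4964, 1512 to 2386, 1999 to 2784, 2951 to 3847 and 1582 to 2161, and from 2109 to 2837 in dKO against Id1KO. Members fell by more than 1.5 times without Id1KO replicate 1 (4) or WT replicate 2 (6) in Id1KO against WT. In dKO against Id1KO they did so without Id1KO replicate 1 (5), dKO replicate 1 (5) or dKO replicate 3 (3), and for the interaction without Id1KO replicate 1, Tet2KO replicate 3 or WT replicate 2 (9 each). Over the 85 calls of the 34 genes, 1455 alternative values kept direction and call, 294 kept direction only and 8 reversed. Of the 8, 4 came from the summed additive fit, where an effect shared by both backgrounds can turn a sign.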
